A study of Mus musculus with 9 samples.

Results

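The translation initiation and elongation factors bring the ribosome to the start codon of an mRNA and move it along the coding sequence. Their contact with Argonaute (AGO), the protein that carries microRNAs, was examined in mouse liver with and without miR-122. The members were all protein-coding genes whose symbols begin with Eif or Eef followed by a digit, and 2 further genes of that form were not analysed here. This gave 58 of the 13727 genes that had an AGO-bound region, and 416 of 92645 such regions, called peaks. The data are AGO CLIP-seq, in which ultraviolet light crosslinks RNA to AGO, AGO is isolated with a pan-AGO antibody, and the attached RNA is sequenced. The 4 KO libraries came from miR-122 knockout mice and the 5 control libraries from their floxed littermates, all 6 weeks old, with 1 mouse per library. KO replicate 1 and control replicates 1 to 3 were female and the other mice male. The sources used here do not name the driver of the deletion. Whole liver was used, so fewer cells of a type and less RNA per cell cannot be told apart in any value below.

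Initiation starts when eIF2, loaded with GTP and the initiator tRNA, joins the small ribosomal subunit together with eIF1, eIF1A, eIF3 and eIF5. The eIF4F complex, made of the cap-binding protein eIF4E, the scaffold eIF4G and the helicase eIF4A, recruits this assembly to the mRNA cap. eIF2B reloads eIF2 with GTP, and the 4 eIF2 kinases stop that step under stress. The eIF4E-binding proteins hold eIF4E away from eIF4G until mTORC1 phosphorylates them. The elongation factors eEF1 and eEF2 then deliver aminoacyl-tRNA and translocate the ribosome. miR-122 is the dominant microRNA of hepatocytes. AGO reads at an mRNA follow both how much of that mRNA is present and how much of it AGO holds, and the counts do not separate these.

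The libraries held 612479 to 1070610 counts in KO livers and 445912 to 1170130 in control livers. The region over the miR-122 gene itself had 52, 3, 39 and 16 counts in KO livers, against 447, 270, 378, 396 and 324 in control livers. Reads at peaks without a miR-122-5p match made up 96.5 ± 0.382% of all counts in KO livers (SD, n = 4) and 80.5 ± 1.09% in control livers (n = 5). A list of 10 hepatocyte markers summed to 13085 to 20507 CPM (read counts scaled to library size) in KO livers and 25839 to 32827 CPM in control livers, with all 10 detected in both. A list of 15 neuron markers summed to 2135, 2338, 2853 and 8954 CPM in KO replicates 1 to 4, against 38.9 to 56.4 CPM in control livers, where 8 of the 15 had no read. KO replicate 4 thus stood apart. Stellate cell markers summed to 735 to 1418 CPM in KO livers and 393 to 539 CPM in control livers, and erythroid markers to 4968 to 7925 CPM in KO livers and 3438 to 4842 CPM in control livers, again without overlap. The other lists overlapped. Kupffer cell markers summed to 184 to 400 CPM in KO livers and 164 to 221 CPM in control livers. Endothelial markers summed to 194 to 436 CPM in KO livers and 376 to 443 CPM in control livers. Cholangiocyte markers summed to 4.90 to 11.7 CPM in KO livers and 4.23 to 16.1 CPM in control livers. KO replicate 4 was the lowest KO library for stellate, Kupffer and endothelial markers. The part of any of these lists in the results below was not tested. The deposited class of a match runs from 8mer (the longest) through 7mer-m8 and 7mer-A1 to 6mer, and a second kind of miR-122 match, marked "-B" in the deposited names, is not defined in the sources used here.

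Of the 416 member peaks, 32 in 23 genes held a miR-122-5p match, or 7.69%, against 9.33% of the 80213 peaks in all protein-coding genes. Another 10 held a "-B" match and no miR-122-5p match. Members were bound mostly in their coding sequence: 58.2% of their peaks were coding and 31.0% lay in the 3′ UTR, against 41.9% and 37.7% for all protein-coding genes. Matches to miR-103/107 were found in 39 member peaks (9.38%, against 10.1% of protein-coding peaks), to let-7 in 24 (5.77%, against 7.18%) and to miR-30 in 7 (1.68%, against 5.06%). These shares are descriptions of the deposited lists.

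The following mature microRNAs belong to the families whose matches stand in the peaks described below. They are shown 5′ to 3′ with the seed, bases 2 to 8, in capitals, and are RefSeq sequences from the GRCm38.p6 table; no pair of them shares a seed.
mmu-let-7a-5p: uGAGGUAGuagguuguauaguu
mmu-miR-103-3p: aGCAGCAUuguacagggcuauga
mmu-miR-101a-3p: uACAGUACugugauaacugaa
mmu-miR-29a-3p: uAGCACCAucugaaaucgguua
mmu-miR-191-5p: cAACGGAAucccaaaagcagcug
mmu-miR-125b-5p: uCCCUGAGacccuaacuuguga
mmu-miR-194-5p: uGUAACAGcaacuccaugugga
The let-7 family has a 7mer-m8 match in a 3′ UTR peak of Eif4g2 and an 8mer in the coding peak of Eif4ebp2. The miR-103/107 family has 8mers in 3′ UTR peaks of Eef2 and Eif5. A 6mer for miR-101 lies in the Eif4g2 peak with the smallest p among the members' higher peaks. The coding peak of Eif5a holds a 7mer-m8 for miR-29, the 5′ UTR peak of Eif1b a 7mer-m8 for miR-191, a coding peak of Eif2ak3 an 8mer for miR-125, and the 3′ UTR peak of Eif2d a 7mer-m8 for miR-194. A match is a description of the letters and not a shown binding event.

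Removal of miR-122 took most AGO reads from the members' miR-122 peaks. Those 32 peaks held 0.0132 ± 0.0019% of all counts in KO livers (SD, n = 4) and 0.1185 ± 0.0139% in control livers (n = 5). In control livers Eif3c, a core subunit of the eIF3 scaffold, held 51.6% of these reads, Eif2ak1, the haem-regulated eIF2 kinase, 19.5%, and the scaffold Eif4g1 7.71%. The other 20 genes shared the remainder. The AGO reads of all 58 members at the peaks without a miR-122-5p match made up 0.319 ± 0.034% of all counts in KO livers and 0.285 ± 0.0134% in control livers. As a share of the counts outside miR-122-5p peaks, the same reads were 0.331 ± 0.0349% in KO livers and 0.354 ± 0.013% in control livers, so the direction depends on the total they are set against. The sum over all member peaks was 0.332 ± 0.0333% in KO livers and 0.403 ± 0.0215% in control livers.

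Peaks were tested across all 17182 that passed a filter on low counts, with genotype and sex as terms (edgeR's quasi-likelihood test, Benjamini-Hochberg adjusted p under 0.05, as for every adjusted p below). Of 94 member peaks tested, 24 were lower in KO livers (25.5%, against 27.6% of all peaks) and 15 higher (16.0%, against 17.5%). The count of 15 was 6 without control replicate 4, 8 without control replicate 3, and 9 without control replicate 1 or KO replicate 1. It was 24 with upper quartile factors and 8 with TMM factors from peaks without a miR-122 match. The count of 24 lower peaks was 16 without control replicate 3 or control replicate 4. Of the lower peaks 13, and of the higher peaks 2, passed the filter with no library of the other group at its minimum, so they had to differ. Among the lower peaks described below, these included the second Eif3c peak, both Eif2ak1 peaks and the Eif4enif1 peak. The "-B" peaks of Eif2b4, Eif3e and Eif3f were among them too. For all of these the adjusted p is a description. Of the members' 11 tested miR-122-5p peaks, 10 were lower (90.9%, against 89.8% of all such peaks) and none higher, with a median log2 fold of -3.60 beside -3.74 for all 2637 such peaks. All 5 tested "-B" peaks were lower, in Eif2b4, Eif3e, Eif3f, Eif4b and Eif4e2, with a median of -3.27 beside -3.51 for all 630, of which 85.4% were lower. Of the 78 member peaks with neither match, 9 were lower (11.5%, against 13.2%) and 15 higher (19.2%, against 21.3%), with a median of 0.39 beside 0.26 for all 13915.

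**Figure D1:**
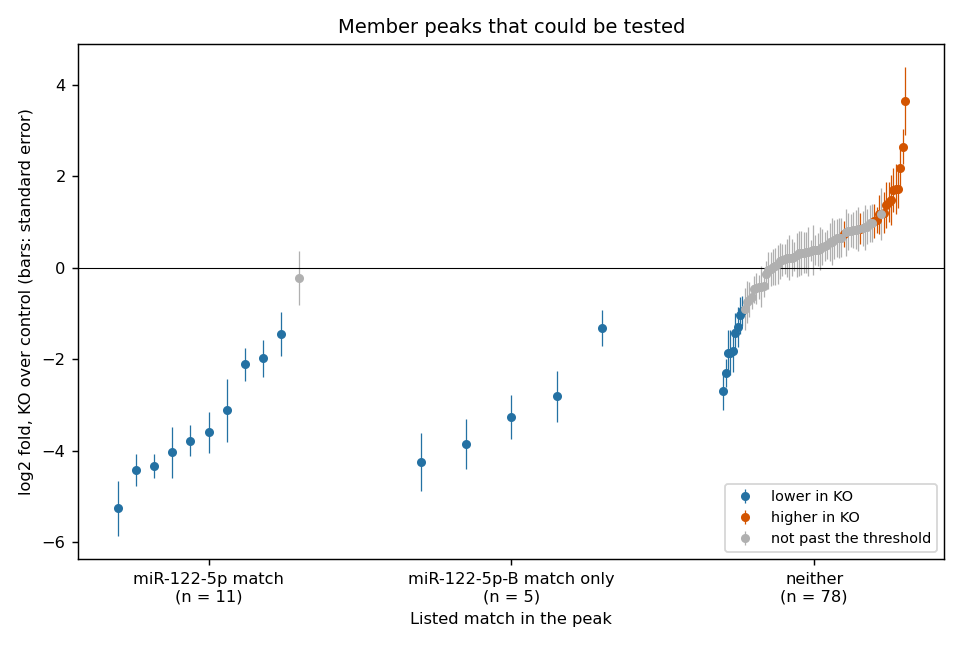
Log2 fold (KO over control, bars: standard error) of each of the 94 tested member peaks, ordered within 3 columns by the listed match (11 with a miR-122-5p match, 5 with a "-B" match only, 78 with neither). The first column holds 10 lower peaks and 1 near 0, the second 5 lower peaks, and the third spans 0 with 9 lower and 15 higher peaks.

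The peak with the most reads lay in the coding sequence of Eif3c (chr7:126556338-126556407, mm10, minus strand) over a 6mer match. Its level, scaled to a common library size by TMM, was 47.3, 30.1, 25.9 and 27.0 CPM in KO livers, against 747, 987, 810, 597 and 627 CPM in control livers. Every KO library lay far below every control library, and the log2 fold was -4.34 ± 0.27 (SE, adjusted p = 1.25e-08). This single peak supplied 28.8 ± 5.55% of the Eif3c reads in KO livers and 80.4 ± 1.37% in control livers. A second coding peak of Eif3c with a 7mer-A1 match had 4.51 to 7.10 CPM in KO livers and 65.9 to 104 CPM in control livers (log2 fold -3.78, adjusted p = 1.67e-07). In the authors' deposited table, the mean phyloP conservation score of the 6 matched bases was 2.12 at the first Eif3c match and 1.96 at the second.

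Eif2ak1 was lower at both of its tested peaks. The 3′ UTR peak (chr5:143902338-143902407, plus strand, a 6mer match) had 7.10, 12.0, 7.89 and 16.2 CPM in KO livers, against 216, 116, 250, 220 and 228 CPM in control livers. The groups did not overlap (log2 fold -4.43 ± 0.35, adjusted p = 5.64e-08). Both Eif2ak1 peaks passed the filter through the control libraries alone, so they had to differ. Its coding peak with a 7mer-A1 match averaged 5.27 ± 3.64 CPM in KO livers and 81.9 ± 30.8 CPM in control livers (log2 fold -3.60, adjusted p = 5.35e-06). A coding 7mer-A1 peak of Eif4g1 had 16.6, 2.41, 2.25 and 0 CPM in KO livers and 34.8 to 138 CPM in control livers (log2 fold -4.04, adjusted p = 1.84e-05; -5.70 without KO replicate 1). An intronic 8mer peak of Eif4enif1, which encodes a protein that binds eIF4E and carries it into the nucleus, held 2 reads over the KO livers and 106 over the control livers. Scaled to the TMM library sizes, that is a KO over control ratio of 0.0204 (95% exact Clopper-Pearson interval 0.00244 to 0.0755, for counting error only, adjusted p = 2.41e-06 in the fit). The exception among the tested miR-122-5p peaks was the 3′ UTR 7mer-m8 peak of Eif4h, a helper of the eIF4A helicase, with 14.3 ± 13.8 CPM in KO livers and 12.47 ± 5.93 CPM in control livers. Its fitted log2 fold, with sex as a term, was -0.22 (adjusted p = 0.787), the opposite sign to the difference of the means, so no direction is given. Among the untested miR-122-5p peaks, the 3′ UTR peak of Eif5a2 held 41 reads over KO livers and 1 over control livers. The coding peak of Eif3f held 19 over KO livers and 21 over control livers. Other untested ones were lost: those of Eef1e1, Eif2b1 and Eif3k held 0 reads over KO livers. Over control livers they held 50, 27 and 22. All 32 miR-122-5p peaks together held 485 reads over KO livers and 4980 over control livers.

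**Figure D2:**
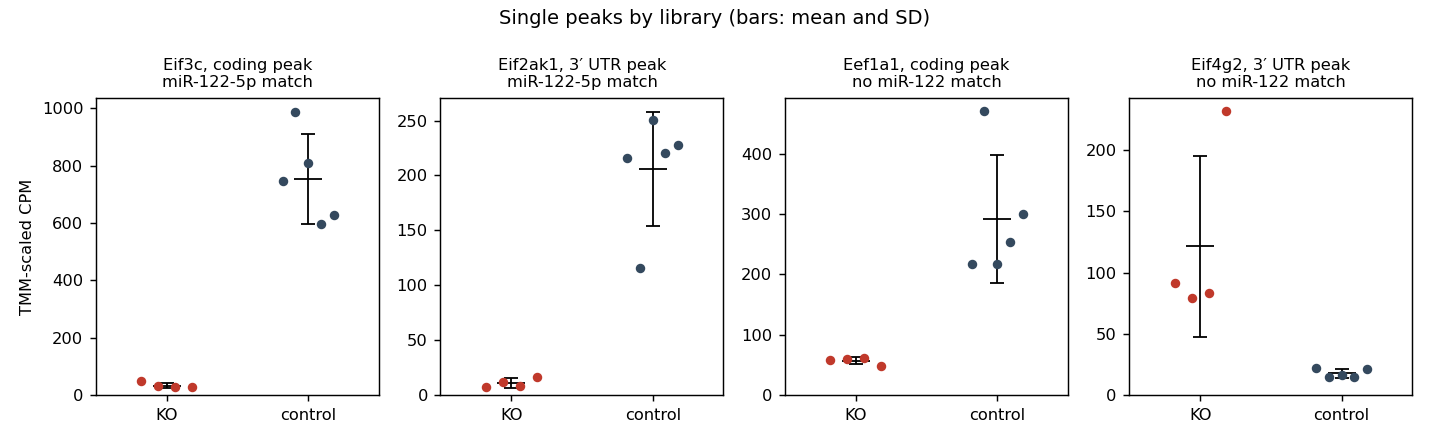
TMM-scaled CPM of 4 single peaks in each library, KO on the left and control on the right of each panel, with the mean and SD as bars. The miR-122-5p peaks of Eif3c and Eif2ak1 and the Eef1a1 coding peak were lower in every KO library than in every control library, and the Eif4g2 3′ UTR peak was higher in every KO library, most in KO replicate 4.

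Summed per gene over all peaks, 49 of the 58 members passed the filter. Of these, 12 were lower in KO livers (24.5%, against 23.7% of the 8857 genes tested) and 7 higher (14.3%, against 21.2%). With miR-122-5p peaks left out, 47 members were tested. Then 10 were lower (21.3%, against 16.7% of 8405 genes) and 4 higher (8.51%, against 17.3%). The median log2 fold of tested members was -0.16 without those peaks, beside 0.04 for all genes, and -0.05 with them, beside 0.05. Between the 2 kinds of sum the scaling itself moved: in 28 tested members without any miR-122-5p peak the log2 fold was higher by a median of 0.24 when all peaks were used. The calls of 13 members held in both sums, 6 were made only with all peaks, and 1 only without miR-122 peaks. The higher-call count without miR-122 peaks turned on single libraries: it was 2 without control replicate 4, 2 without control replicate 5 and 7 without KO replicate 4. The lower-call count ran from 7 to 12 over the fits that left out 1 library.

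**Figure D3:**
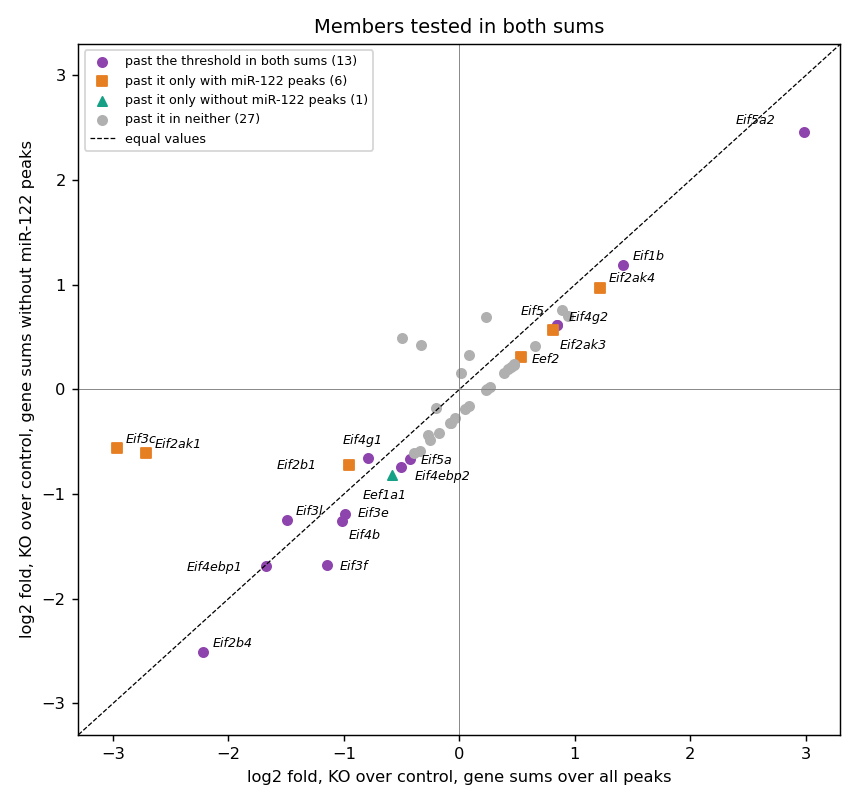
Log2 fold (KO over control) of the 47 members tested in both sums, over all peaks on the x axis and without miR-122 peaks on the y axis; the dashed line marks equal values. Eif3c and Eif2ak1 lie farthest left, at -2.97 and -2.71 over all peaks, and far above the line, at -0.56 and -0.61 without miR-122 peaks, while most members run parallel to the line and slightly below it.

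Of the 10 members of the eIF2 ternary complex and its exchange factor group, 7 were tested without miR-122 peaks, of which 1 was lower and 1 higher. Beside this and each group of members below, 16.7% of all genes tested in these sums were lower and 17.3% higher. Eif2b4, the delta subunit of the exchange factor eIF2B, had 11.7, 6.40, 7.92 and 7.30 CPM in KO livers, against 58.3, 56.5, 52.3, 29.8 and 69.1 CPM in control livers. This was the largest fall among the members in these sums (log2 fold -2.51 ± 0.34, adjusted p = 0.000202). Only 1 KO library reached the minimum of the low-count filter for this sum, so its adjusted p calls for caution. Part of the fall lay in a coding peak with a "-B" 8mer (chr5:31187667-31187736, minus strand), which held 3 reads over KO livers and 72 over control livers, a ratio of 0.0450 (95% counting interval 0.00907 to 0.137). With "-B" and miR-122-3p peaks left out too, the Eif2b4 log2 fold was -1.66 (adjusted p = 0.0185). Eif5, the GTPase activator of eIF2, had 172, 171, 171 and 251 CPM in KO livers, against 131, 136, 121.9, 104 and 132 CPM in control livers. It was higher in KO (log2 fold 0.61 ± 0.19, adjusted p = 0.0257), but not without control replicate 4 (adjusted p = 0.0645) or control replicate 5 (adjusted p = 0.0556). Its 3′ UTR 8mer peak for miR-103/107 averaged 39.2 ± 21.0 CPM in KO livers and 10.9 ± 5.88 CPM in control livers (log2 fold 1.44, adjusted p = 0.0134). Eif2d, a factor that can deliver tRNA without eIF2, had 119 to 153 CPM in KO livers and 110 to 168 CPM in control livers, with overlapping groups (log2 fold 0.00 ± 0.17, adjusted p = 0.992). Eif2b1, the alpha subunit of eIF2B, was lower only over all peaks (log2 fold -0.95, adjusted p = 0.0497), and 7 of the 9 fits without 1 library lost that call, at adjusted p from 0.063 to 0.242.

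The 4 eIF2 kinases differed in how much of their AGO signal was at miR-122 peaks. Over all peaks Eif2ak1 had 44.4, 45.9, 44.7 and 46.2 CPM in KO livers, against 317, 207, 369, 307 and 283 CPM in control livers (log2 fold -2.71 ± 0.20, adjusted p = 1.27e-06). Without its miR-122 peaks it had 33.3 ± 2.43 CPM in KO livers and 50.9 ± 8.69 CPM in control livers, and the log2 fold of -0.61 ± 0.24 did not pass the threshold (adjusted p = 0.0678), but passed with no sex term in the fit (-0.62, adjusted p = 0.0384). Eif2ak3, the kinase PERK of the endoplasmic reticulum, had 102, 67.2, 91.1 and 48.7 CPM in KO livers and 30.1 to 75.1 CPM in control livers (log2 fold 0.57 ± 0.30, adjusted p = 0.164). Eif2ak4, the amino-acid sensor GCN2, had 26.7, 26.7, 30.7 and 4.87 CPM in KO livers and 9.95 to 16.8 CPM in control livers (log2 fold 0.97 ± 0.45, adjusted p = 0.117). In both, KO replicate 4 was the lowest KO library. Without that library each passed the threshold, Eif2ak3 with a log2 fold of 0.70 (adjusted p = 0.0339) and Eif2ak4 with 1.20 (adjusted p = 0.00862). Over all peaks both were called higher (log2 fold 0.81 and 1.22), but the Eif2ak3 call was lost in 6 of the 9 fits without 1 library, down to 0.24 without KO replicate 1 (adjusted p = 0.588). The Eif2ak4 call was lost without control replicate 1 (adjusted p = 0.0784) or control replicate 2 (adjusted p = 0.0536). A coding peak of Eif2ak3 with the miR-125 8mer was higher in KO (41.3 ± 21.3 CPM, against 17.5 ± 11.9 CPM in control livers, log2 fold 1.20, adjusted p = 0.0378). Eif2ak2, the double-stranded RNA sensor PKR, was too low for the test, with 33 reads over KO livers and 22 over control livers.

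Among the scanning and start codon factors, 4 of 5 were tested and 1 was higher. Eif1b, a close copy of Eif1, had 38.4, 42.7, 25.7 and 56.0 CPM in KO livers, against 6.03, 13.3, 24.9, 17.9 and 18.8 CPM in control livers. The lowest KO library was just above the highest control library (log2 fold 1.19 ± 0.39, adjusted p = 0.0318). The call was lost without control replicate 2, 4 or 5 or KO replicate 1 or 2, at adjusted p from 0.0515 to 0.149. Most of its reads were at a 5′ UTR peak with the miR-191 match, at 33.5 ± 9.17 CPM in KO livers and 9.28 ± 4.87 CPM in control livers (log2 fold 1.72, adjusted p = 0.00272). Eif1 itself averaged 59.2 ± 28.1 CPM in KO livers and 82.5 ± 13.4 CPM in control livers (log2 fold -0.32, adjusted p = 0.48). The sources used here do not say how reads from near copies were assigned, so Eif1 with Eif1b, Eif1a with Eif1ax, Eif3j1 with Eif3j2, Eif4a1 with Eif4a2, and Eef1a1 and Eif5a, which have closely related copies, are uncertain on this account.

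The eIF3 complex, which binds the small ribosomal subunit and the other factors, had 14 members, of which 11 were tested without miR-122 peaks. Eif3f, Eif3l and Eif3e were lower (27.3%, against 16.7% of all genes) and none was higher (all genes: 17.3%). The median log2 fold was -0.27, beside 0.04 for all genes. Eif3l had 24.5, 25.6, 30.7 and 19.5 CPM in KO livers, against 46.2, 43.2, 47.3, 54.8 and 90.0 CPM in control livers (log2 fold -1.25 ± 0.27, adjusted p = 0.00346). Eif3f had 13.9, 19.2, 17.8 and 7.30 CPM in KO livers, against 24.1, 36.6, 44.8, 62.0 and 52.4 CPM in control livers (log2 fold -1.68 ± 0.33, adjusted p = 0.00206). Eif3e had 38.4, 26.7, 36.6 and 24.3 CPM in KO livers, against 84.4, 156, 63.5, 51.3 and 77.5 CPM in control livers (log2 fold -1.19 ± 0.32, adjusted p = 0.0119). The Eif3e call was lost without control replicate 5 (adjusted p = 0.0552) or KO replicate 1 (adjusted p = 0.076).

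In Eif3e and Eif3f the "-B" peak was the only peak that could be tested alone. The Eif3e coding peak (chr15:43252249-43252318, minus strand, "-B" 8mer) averaged 2.15 ± 0.698 CPM in KO livers and 42.8 ± 28.8 CPM in control livers (log2 fold -3.85, adjusted p = 2.28e-05). The Eif3f 3′ UTR peak (chr7:108941605-108941674, plus strand, "-B" 8mer) averaged 3.01 ± 0.544 CPM in KO livers and 26.6 ± 12.6 CPM in control livers (log2 fold -3.27, adjusted p = 3.48e-05). With "-B" and miR-122-3p peaks left out as well, the log2 fold was -0.26 for Eif3e (adjusted p = 0.601) and -0.30 for Eif3f (adjusted p = 0.597), and only Eif3l of the complex remained lower. Eif3c, reduced to a log2 fold of -2.97 ± 0.18 over all peaks (95.2 ± 12.8 CPM in KO livers, 837 ± 197 CPM in control livers, adjusted p = 2.67e-07), had 65.9 ± 6.03 CPM in KO livers and 108 ± 33.4 CPM in control livers once its 2 miR-122 peaks were left out. That difference did not pass (log2 fold -0.56 ± 0.24, adjusted p = 0.0863). It passed without KO replicate 4 (-0.62, adjusted p = 0.0401) and with no sex term (-0.69, adjusted p = 0.0313). The scaffold subunit Eif3a had 19 peaks and averaged 110 ± 10.5 CPM in KO livers and 92.3 ± 16.5 CPM in control livers (log2 fold 0.21, adjusted p = 0.428).

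All 9 members of the cap complex were tested. Eif4b and Eif4g1 were lower and Eif4g2 higher without miR-122 peaks. Eif4b, which stimulates the eIF4A helicase, had 63.0, 75.7, 84.2 and 43.8 CPM in KO livers, against 153, 170, 125.7, 166 and 174 CPM in control livers. The groups were far apart (log2 fold -1.26 ± 0.21, adjusted p = 0.00081), and the fold was still -1.02 with "-B" peaks left out too (adjusted p = 0.00347). A coding peak of Eif4b with no match to any listed family (chr15:102089862-102089931, plus strand) had 4.73, 6.02, 13.5 and 2.70 CPM in KO livers and 33.5 to 54.8 CPM in control livers (log2 fold -2.70 ± 0.41, adjusted p = 3.91e-05). Over its 3′ UTR peaks alone Eif4b showed no call (log2 fold -0.18, adjusted p = 0.734).

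Eif4g1 and Eif4g2 moved in opposite directions. Eif4g1, the main scaffold of eIF4F, had 228, 211, 257 and 207 CPM in KO livers, against 342, 283, 371, 305 and 446 CPM in control livers (log2 fold -0.66 ± 0.18, adjusted p = 0.0123). The call was lost without control replicate 5 (-0.50, adjusted p = 0.0685). Of its 11 tested peaks 5 were lower and none higher, among them a 3′ UTR peak with a let-7 7mer-m8. Eif4g2, a scaffold that lacks the eIF4E-binding region and acts in cap-independent initiation, had 467, 475, 476 and 606 CPM in KO livers, against 360, 289, 328, 305 and 341 CPM in control livers (log2 fold 0.62 ± 0.16, adjusted p = 0.00982). Of its 9 tested peaks 6 were higher and none lower. The largest log2 fold among the 9, at 3.65, was at a coding peak. The 3′ UTR peak at chr7:111072574-111072686 (minus strand, miR-101 6mer) had 91.1, 79.5, 83.4 and 232 CPM in KO livers, against 22.3, 14.5, 16.2, 14.5 and 20.9 CPM in control livers (log2 fold 2.65 ± 0.39, adjusted p = 2.93e-05). It made up 17.6, 14.8, 15.4 and 34.5% of the Eif4g2 reads in KO livers and 5.08 to 6.75% in control livers. The let-7 7mer-m8 peak of Eif4g2 was also higher in KO (113 ± 20.1 CPM, against 61.4 ± 20.6 CPM in control livers, log2 fold 0.73, adjusted p = 0.0408). Its 5′-most tested coding peak had 50.5 ± 7.62 CPM in KO livers and 88.6 ± 19.4 CPM in control livers (log2 fold -0.65, adjusted p = 0.0575). Eif4g3, the third scaffold, had 59.9 ± 13.4 CPM in KO livers and 48.6 ± 7.25 CPM in control livers (log2 fold 0.16, adjusted p = 0.609).

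The remaining cap complex members did not pass. The helicases Eif4a1 and Eif4a2 had log2 folds of -0.42 (adjusted p = 0.295) and -0.01 (adjusted p = 0.984). The cap-binding protein Eif4e averaged 36.0 ± 17.2 CPM in KO livers and 15.9 ± 8.95 CPM in control livers (log2 fold 0.76, adjusted p = 0.14), and its repressive relative Eif4e2 76.8 ± 9.97 CPM in KO livers and 108 ± 12.9 CPM in control livers (log2 fold -0.44, adjusted p = 0.0833; -0.50 and adjusted p = 0.0384 with no sex term). Eif4a3, the helicase of the exon junction complex, was not tested, with 27 reads over KO livers and 30 over control livers.

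AGO reads at the mRNAs of the eIF4E-binding proteins Eif4ebp1 and Eif4ebp2 were lower in KO livers. Eif4ebp3 was not among the members. Eif4ebp1 had 10.7, 9.60, 14.9 and 7.30 CPM in KO livers, against 54.2, 56.5, 33.6, 39.3 and 18.8 CPM in control livers (log2 fold -1.68 ± 0.38, adjusted p = 0.00506; -1.40 and adjusted p = 0.053 without control replicate 4). For this sum only 1 KO library reached the minimum of the low-count filter, so its adjusted p calls for caution. The 3′ UTR peak of Eif4ebp1, with a let-7 6mer, averaged 9.90 ± 1.81 CPM in KO livers and 32.8 ± 15.5 CPM in control livers (log2 fold -1.43, adjusted p = 0.0131). Eif4ebp2 had 124, 113, 100 and 124 CPM in KO livers, against 195, 126.3, 219, 222 and 182 CPM in control livers (log2 fold -0.74 ± 0.20, adjusted p = 0.0116; -0.56 and adjusted p = 0.0938 without control replicate 4). Control replicate 2 lay close to the KO libraries. Over all peaks, where Eif4ebp2 has the same reads and another scaling, the log2 fold was -0.51 (adjusted p = 0.0498). That call was lost in 7 of the 9 fits without 1 library, at adjusted p from 0.0668 to 0.202. Neither of the 2 tested Eif4ebp2 peaks passed alone. The coding peak with the let-7 8mer (chr10:61452432-61452501, minus strand) had 98.6 ± 9.27 CPM in KO livers and 131 ± 37.0 CPM in control livers (adjusted p = 0.213). The eIF4E transporter Eif4enif1, without its miR-122 peaks, had 28.1 ± 2.30 CPM in KO livers and 20.1 ± 6.74 CPM in control livers (log2 fold 0.49, adjusted p = 0.257).

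Among the joining and late factors, the paralogues Eif5a and Eif5a2 went opposite ways. They encode the proteins that carry the amino acid hypusine and relieve stalled ribosomes. Eif5a had 128, 129, 144 and 124 CPM in KO livers, against 197, 186, 220, 190 and 235 CPM in control livers (log2 fold -0.67 ± 0.16, adjusted p = 0.00598). Over all peaks, where Eif5a has the same reads and another scaling, the log2 fold was -0.43 (adjusted p = 0.0432). That call was lost in 8 of the 9 fits without 1 library, at adjusted p from 0.0536 to 0.16. Its coding peak with the miR-29 match averaged 131 ± 13.4 CPM in KO livers and 169 ± 16.9 CPM in control livers, without overlap, but did not pass alone (log2 fold -0.41, adjusted p = 0.156). Eif5a2 had 27.7, 38.4, 35.6 and 87.6 CPM in KO livers, against 4.02, 13.3, 6.22, 4.77 and 10.5 CPM in control livers. It had the largest rise among tested members (log2 fold 2.46 ± 0.47, adjusted p = 0.00184). It passed the low-count filter through the KO libraries alone, as no control library reached the minimum, so it had to differ and its p is a description. KO replicate 4, with the highest neuron marker sum (8954 CPM), was the highest KO library, and the part of those markers in this result was not tested. The other 2 late factors were not called: Eif5b, the subunit-joining GTPase, had a log2 fold of 0.19 (adjusted p = 0.675), and Eif6, which keeps free large subunits apart, 0.24 (adjusted p = 0.557).

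**Figure D4:**
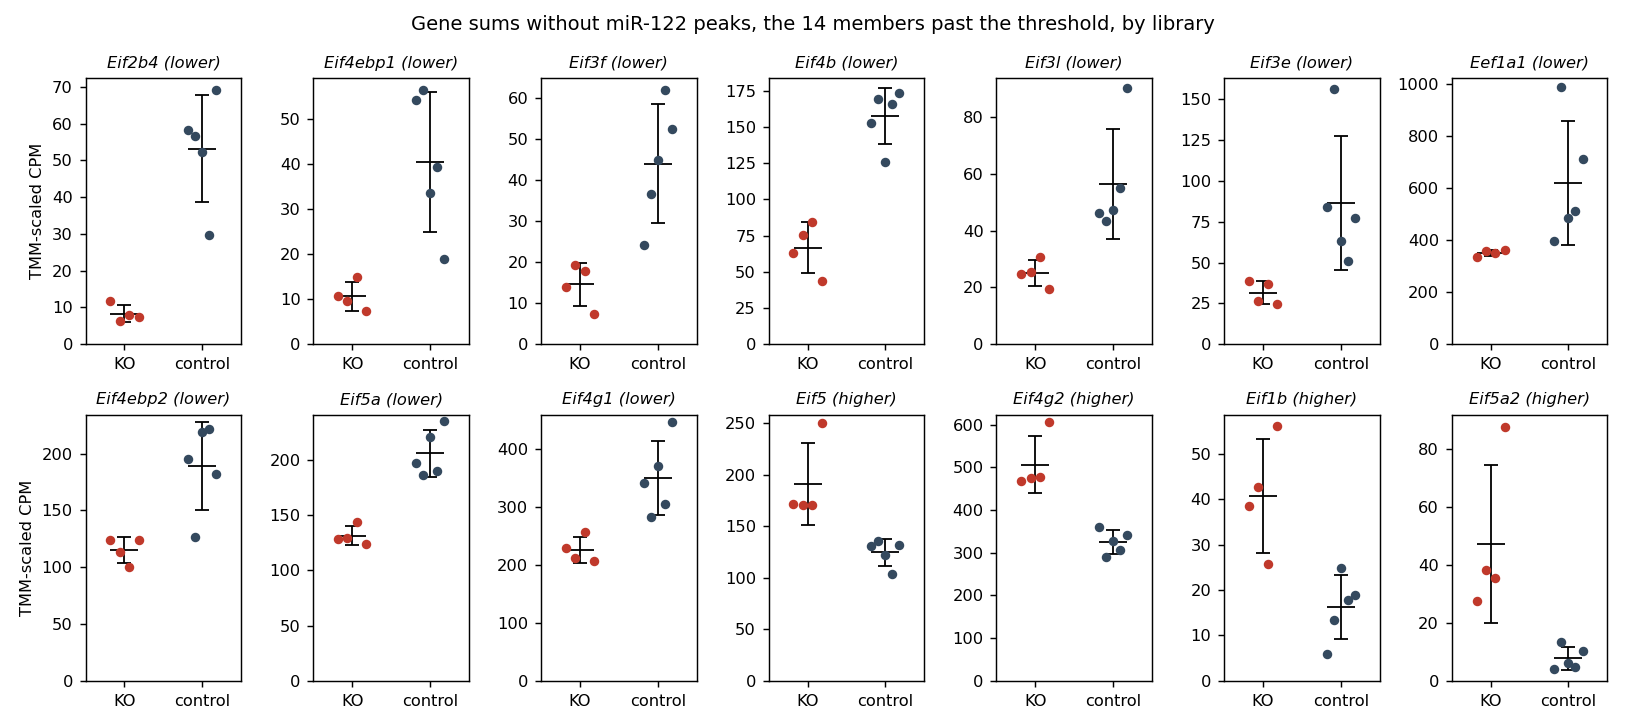
TMM-scaled CPM, summed per gene without miR-122 peaks, in each library for the 14 members past the threshold, ordered from the lowest to the highest log2 fold, with KO left of control in each panel and the mean and SD as bars. In all 14 the 4 KO libraries lie on one side of the 5 control libraries. These members were picked by the test between the groups, so this separation adds nothing to that test. KO replicate 4 is the high point of Eif5, Eif4g2, Eif1b and Eif5a2.

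Of the 8 elongation factors, 6 were tested without miR-122 peaks and Eef1a1 alone was lower. Eef1a1, which delivers aminoacyl-tRNA, had 335, 358, 349 and 360 CPM in KO livers, against 398, 987, 483, 513 and 712 CPM in control livers. The KO libraries lay close together and the controls were spread widely (log2 fold -0.82 ± 0.26, adjusted p = 0.0293). Leaving out control replicate 4 or 5 or KO replicate 1, 2 or 3 lost the call, at adjusted p from 0.0504 to 0.121, and over all peaks it was not made (log2 fold -0.58, adjusted p = 0.0859). The difference sat in 1 of its 7 tested peaks. That coding peak (chr9:78479122-78479191, minus strand), which holds no match to any listed family, had 58.0, 59.0, 62.0 and 48.5 CPM in KO livers, against 217, 472, 217, 254 and 300 CPM in control livers (log2 fold -2.31 ± 0.30, adjusted p = 8.38e-06). It supplied 14.5 ± 1.63% of the Eef1a1 reads in KO livers and 52.3 ± 5.09% in control livers. The other 6 peaks had log2 folds from 0.18 to 0.55 and none passed.

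Eef1a2, the isoform of muscle and neurons, had 6, 22, 24 and 35 reads in KO livers and none in the 5 control livers. It had a single coding peak and did not pass the filter. Against the floor of 3 counts over the control group, 1.03 TMM-scaled CPM, its mean of 34.7 ± 34.6 CPM in KO livers was at least 33.8-fold higher. That bound rests largely on KO replicate 4: without it the mean was 17.9 ± 9.94 CPM (n = 3) and the bound 17.4-fold, a value added after the data were seen. The two-sided exact permutation p was 0.0159, the smallest that 4 against 5 libraries can give here, or 0.0635 after adjustment over the 4 named members the model did not test. KO replicate 4 was highest here too, as in the neuron marker sum, of which 2135 to 8954 CPM were in KO livers and 38.9 to 56.4 CPM in control livers. The part of those markers in this result was not tested.

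Eef2, which translocates the ribosome, had 339, 427, 387 and 633 CPM in KO livers, against 273, 382, 380, 326 and 350 CPM in control livers (log2 fold 0.31 ± 0.21, adjusted p = 0.294). Over all peaks, where it has the same reads and another scaling, it was called higher (log2 fold 0.54, adjusted p = 0.0464), and 5 of the 9 fits without 1 library lost that call, at adjusted p from 0.0559 to 0.17. Of its 15 tested peaks 4 were higher and 1 lower. The higher ones lay in the last coding stretches and in the 3′ UTR, where the miR-103/107 8mer peak (chr10:81182062-81182131, plus strand) averaged 33.3 ± 12.0 CPM in KO livers and 14.2 ± 5.43 CPM in control livers (log2 fold 1.01, adjusted p = 0.0353). Eef2k, the kinase that inhibits eEF2, had 12.1 ± 2.76 CPM in KO livers and 15.1 ± 11.5 CPM in control livers. The fitted log2 fold, with sex as a term, was 0.16 (adjusted p = 0.859), the opposite sign to the difference of the means, so no direction is given.

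**Figure D5:**
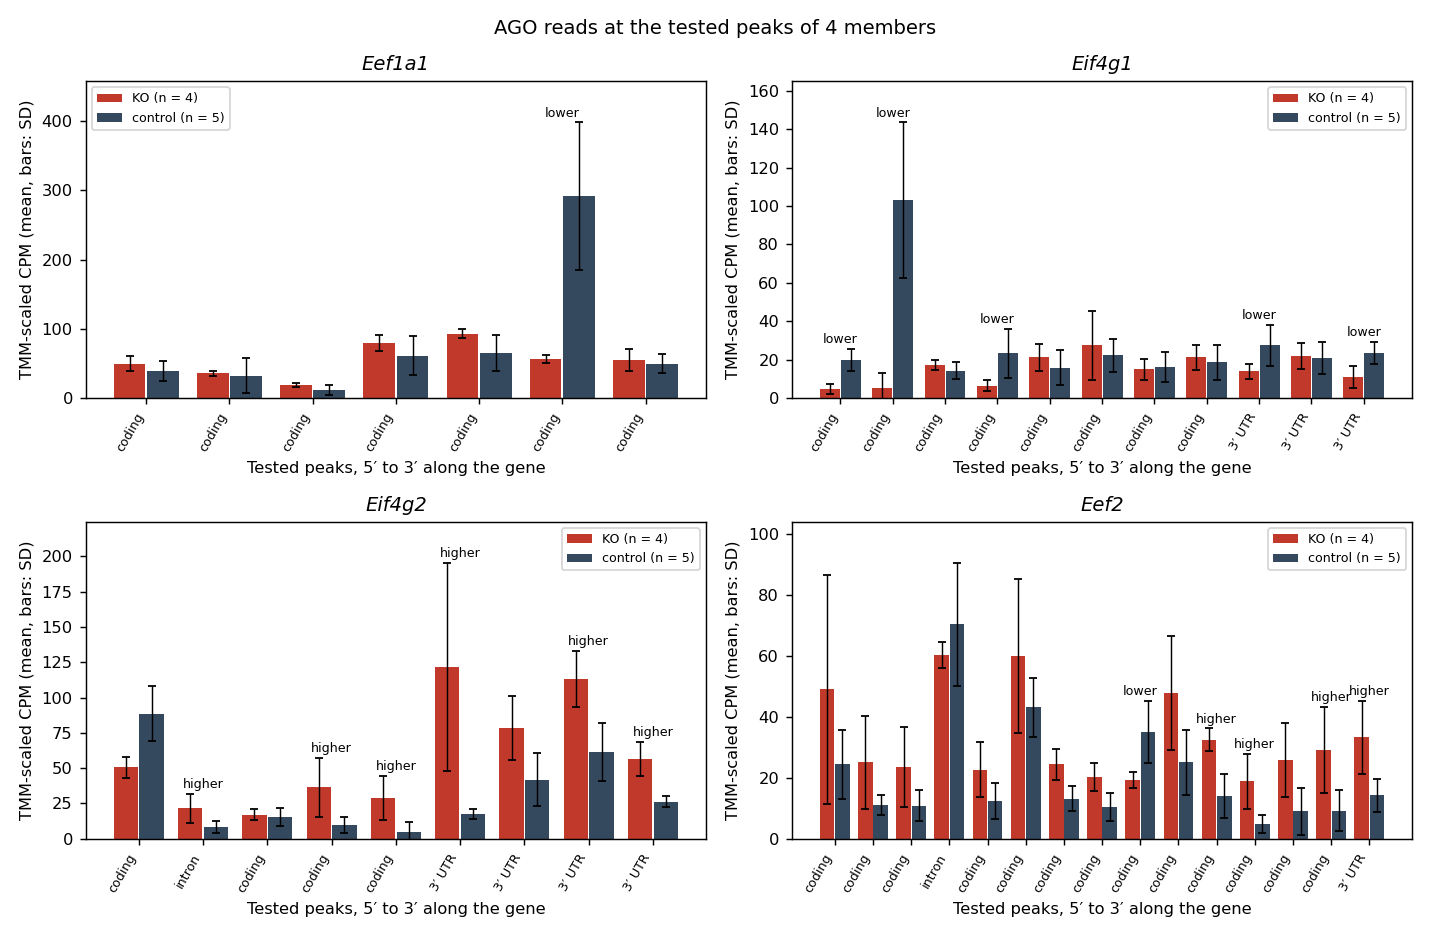
Mean TMM-scaled CPM (bars: SD) of each tested peak of Eef1a1, Eif4g1, Eif4g2 and Eef2 in 5′ to 3′ order, KO (n = 4) left of control (n = 5); "lower" and "higher" mark peaks past the threshold. One coding peak of Eef1a1 and a few peaks of Eif4g1 were lower in KO. Several peaks of Eif4g2 and the late peaks of Eef2 were higher. The largest log2 fold of Eif4g2 was at a coding peak.

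Where in the mRNA the reads lay also differed. Among the members' reads outside miR-122 peaks, 35.8 ± 2.26% were in 3′ UTR peaks in KO livers and 26.5 ± 2.93% in control livers, and 57.2 ± 3.02% were in coding peaks in KO livers against 66.8 ± 3.42% in control livers. All protein-coding genes showed the same kind of difference, with 47.5 ± 1.02% of reads in 3′ UTR peaks in KO livers and 37.1 ± 1.80% in control livers. The members were therefore also summed within 1 class at a time, scaled within that class. Over 3′ UTR peaks 21 members were tested, of which Eif2ak1, Eif3f, Eif4ebp1, Eif4ebp2, Eif4g1 and Eif4h were lower (all genes: 14.7%) and Eif3a, Eif4g2 and Eif5a2 higher (all genes: 16.3%). Over coding peaks 31 were tested, of which Eif2b4, Eif3e, Eif3l and Eif4b were lower (all genes: 18.2%) and Eef2, Eif2ak3, Eif3j2 and Eif5 higher (all genes: 13.1%). Eif4g1 was called over its 3′ UTR (log2 fold -0.94, adjusted p = 0.0122) and not over its coding sequence (-0.32, adjusted p = 0.234), and Eef2 over its coding sequence (0.73, adjusted p = 0.0165) and not over its 3′ UTR (0.49, adjusted p = 0.335). The differences between the classes were not tested.

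Members too low for the test without miR-122 peaks numbered 11: Eef1a2, Eef1e1, Eif1ax, Eif2ak2, Eif2b2, Eif2b3, Eif2s2, Eif3g, Eif3i, Eif3k and Eif4a3. Apart from Eef1a2, their means ran from 0.743 to 20.2 CPM in KO livers and were between 0.651 and 11.001 CPM in control livers.

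Genes that act with these factors were read from fixed lists. Their calls stand beside 16.7% lower and 17.3% higher of all genes tested without miR-122 peaks. Of 8 genes of the response to eIF2 phosphorylation, 6 had peaks and were tested without miR-122 peaks, of which 1 was lower and 1 higher. Atf4, the transcription factor whose mRNA is translated when eIF2 is phosphorylated, was lower. Over all peaks it had 35.7 ± 9.50 CPM in KO livers and 498 ± 77.0 CPM in control livers (log2 fold -3.81 ± 0.23, adjusted p = 2.67e-07). Without miR-122 peaks it had 21.3, 24.5, 10.9 and 24.3 CPM in KO livers, against 96.4, 63.2, 73.4, 90.6 and 105 CPM in control livers (log2 fold -2.15 ± 0.29, adjusted p = 0.000185). Ppp1r15b, a subunit of the phosphatase that restores eIF2, was higher (594 ± 110 CPM in KO livers, 447 ± 42.6 CPM in control livers, log2 fold 0.47, adjusted p = 0.0391). That call was lost in all single-library fits except those without control replicate 4 or KO replicate 4, at adjusted p from 0.052 to 0.239.

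Of 12 genes of mTORC1, the kinase complex that controls the eIF4E-binding proteins, 10 were tested, with 2 lower, none higher and a median log2 fold of -0.27. The lower share was 20.0%, against 16.7% of all genes. Mtor itself was lower over all peaks (log2 fold -1.28, adjusted p = 0.00044). Without miR-122 peaks it did not pass (-0.58, adjusted p = 0.113). Deptor, an inhibitor of mTOR, had 68.2 ± 7.39 CPM in KO livers and 147 ± 32.6 CPM in control livers (log2 fold -1.16 ± 0.20, adjusted p = 0.00101). Rps6kb1, the S6 kinase, had 82.6 ± 6.59 CPM in KO livers and 147 ± 39.5 CPM in control livers (log2 fold -0.69, adjusted p = 0.0234). Its call was lost without KO replicate 1 (-0.44, adjusted p = 0.197), and its direction turned with "-B" peaks left out (0.22, adjusted p = 0.569) and over 3′ UTR peaks alone (0.92, adjusted p = 0.0659). None of 4 tested termination and recycling genes passed without miR-122 peaks. Gspt1 was higher over all peaks only (log2 fold 0.98, adjusted p = 0.018, against 0.75 and adjusted p = 0.0819). Of 9 tested genes of poly(A) binding and cap control 1 was higher, Paip1, which binds the poly(A)-binding protein, with 35.3 ± 18.6 CPM in KO livers and 10.9 ± 6.28 CPM in control livers (log2 fold 1.43, adjusted p = 0.0293). The Paip1 call was lost without control replicate 5 (adjusted p = 0.0619) or KO replicate 1 (adjusted p = 0.194). Pdcd4, of the same list, was lower over all peaks only (log2 fold -0.74, adjusted p = 0.0286, against -0.44 and adjusted p = 0.18). Dohh, the only listed hypusination gene with peaks, was not tested.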

How the data were processed

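AGO CLIP-seq was done on frozen, crosslinked liver powder of 9 mice, per the labels' protocols, which also describe a second amplification. Bowtie2 and mm10 are named in the submitters' processing notes; the sources used here name no peak caller, duplicate removal or counting rule. Read counts per peak were deposited as raw whole numbers, per the file headers. The deposited log2 fold change was not used for any test. The phyloP conservation score was used as deposited by the authors. Peaks, gene names and seed matches are the authors' own.

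Counts of unique peaks were summed per gene over all peaks and over peaks without a mmu-miR-122-5p match. Genes and peaks were fitted over all 9 libraries with edgeR 4.0.16 (R 4.3.3; TMM, filterByExpr, glmQLFit, glmQLFTest, genotype and sex as terms, Benjamini-Hochberg threshold 0.05). The filter keeps a row that is high in 1 group alone, so such rows had to differ. A floor of 3 counts equals 2.56 to 6.73 CPM in single libraries; floors and intervals cover counting error only. On simulated counts for the sums without miR-122 peaks (8405 genes), 82% of genes with a true log2 fold of -2 were recovered, 20% at -1, 24% at 1 and 96% at 2, with 7 false calls. The simulation gave all genes the same dispersion, had no sex effect and changed 200 genes. Its rates therefore do not give the power of the fit to the data. DESeq2 1.42.0, other scalings, filters and single-library omissions were alternatives. Same-numbered KO and control libraries did not deviate together (r from -0.0888 to 0.0124). This cannot show whether the mice were paired by litter or handling.

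Members and lists were chosen with earlier results of these data known. Named genes are the 6 with the highest mean level, the 8 lower and 8 higher with the largest fold among called members, those whose call differs between both sums, and listed paralogue sets; named peaks are the 6 smallest p with and without a miR-122-5p match. Eif2d, Eif3a, Eif4h, Eif4enif1 and other peaks were added after their values were seen. In the table, 31 names of month form were not used, and peaks without a gene held 11.0% of counts; they entered the peak test only. Symbols of all 58 members matched the GRCm38.p6 table, and 415 of 416 peaks lay within 1 kb of their gene.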

Additional observations from a re-analysis of the deposited data

Results flagged for a closer look

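In 83 groups of 4 or 5 libraries, taken over the named members (sums without miR-122 peaks) and the named peaks, 8 had 1 library far from the others by Dixon's criterion at the 95% level. Chance alone flags about 1 in 20 groups. In TMM-scaled CPM, KO replicate 4 stood apart 4 times: at 4.87 for Eif2ak4, against 26.7 in the nearest KO library; at 606 for Eif4g2, against 476; at 251 for Eif5, against 172; and at 232 for the Eif4g2 3′ UTR peak with the miR-101 6mer, against 91.1. KO replicate 1 had 16.6 at the miR-122-5p peak of Eif4g1, against 2.41 in the next KO library. Control replicate 2 had 116 at the 3′ UTR miR-122-5p peak of Eif2ak1, against 216 in the nearest control, and 92.7 at the "-B" peak of Eif3e, against 39.0. Control replicate 5 had 90.0 for Eif3l, against 54.8. KO replicate 4 also had the highest neuron marker sum and the lowest hepatocyte marker sum of the 9 libraries, and the part of these in the values was not tested.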

How the results depend on the processing

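Of 1363 values recomputed under alternatives for 76 results, 1216 stayed on their side of the threshold, 121 lost the call, 24 gained one and 2 reversed. Among the 1216, 27 values of 9 results that were not called changed sign. Both reversals were of Rps6kb1 (log2 fold 0.22 with "-B" and miR-122-3p peaks left out, 0.92 over 3′ UTR peaks alone). For members summed over all peaks, TMM factors from peaks without a miR-122 match gave 4 higher in place of 7. That scaling gave a median of -0.15 over all genes in place of 0.05, with 35.7% of calls higher in place of 47.2%, and upper quartile factors gave 0.15. Without miR-122 peaks, the replicate block left 3 lower and 2 higher, 3′ UTR peaks alone gave 6 lower of 21 tested and coding peaks alone 4 lower of 31 tested. Member peaks called higher were 24 with upper quartile factors (49.4% of all peak calls higher, against 38.8%), 8 with TMM factors from peaks without a miR-122 match (28.3%), and without a filter 39 were lower and 27 higher of 416. Same-numbered libraries did not deviate together (r from -0.0888 to 0.0124), which cannot show whether the mice were paired by litter or handling. Over all genes the replicate block left 770 lower and 989 higher calls in place of 1405 and 1456. Among the members it lost the calls of Eef1a1, Eif3e, Eif3f, Eif3l, Eif4ebp2, Eif4g1, Eif4g2, Eif5 and Eif5a without miR-122 peaks. Leaving out 1 library gave 8 to 12 lower and 4 to 7 higher members over all peaks (4 without control replicate 5), 7 to 12 lower and 2 to 7 higher without miR-122 peaks, and 16 to 27 lower and 6 to 20 higher member peaks. Those higher peaks numbered 9 without control replicate 1, 8 without control replicate 3, 6 without control replicate 4 and 9 without KO replicate 1; the lower peaks numbered 16 without control replicate 3 or control replicate 4. At least 10 CPM in 4 libraries kept the same 17182 peaks and was no stricter filter. The cause of these changes was not tested. Depth limits the low members: 3 counts are 2.56 to 6.73 CPM in a library, and 11 members were not testable without miR-122 peaks.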
